A study of Homo sapiens with 15 samples.

Results

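The SLC26 and apical ion transport genes described here are 9 named genes of the 26475 in the deposited table: SLC26A2, SLC26A4, its antisense gene SLC26A4-AS1, SLC26A6, SLC26A9, SLC26A11, CFTR, ANO1 and SLC9A3. They were chosen by name, with earlier results of these data known: SLC26A4-AS1 was among the largest increases with IL4, and SLC26A2 had been noted with Compound A. Their values in the comparisons of IL4 with untreated and of Compound A with IL4, and in the difference that contains the second, are therefore given as description, without a test. Of the 9 genes, 7 had enough counts to enter the fit across 12795 genes. SLC26A4, with 1 to 10 counts in a library, and CFTR, with 1 to 14, had too few and were not tested.

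A549 is a human lung adenocarcinoma cell line that the labels liken to alveolar type II cells. All 15 libraries came from this line, 3 in each of 5 groups. Cells received interleukin-4 (IL4, 10 ng/ml) with a pooled siRNA against ALOX15 (1 uM), IL4 with a control siRNA, IL4 with a substance labelled only Compound A, IL4 alone, or no treatment, and the labels give 48 h. ALOX15 encodes a lipoxygenase that oxygenates arachidonic and linoleic acid. The sources used here state neither what Compound A is nor its dose, nor the dose of the control siRNA. The labels do not state that the replicates were separate cultures, so p-values may cover technical spread only.

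Apical transporters set the salt, pH and water content of the fluid on an epithelium. The SLC26 family exchanges or conducts anions such as chloride, bicarbonate, sulfate, oxalate and iodide. CFTR, a chloride channel opened by cyclic AMP signalling, and ANO1, a chloride channel opened by calcium, let anions leave the cell, and the sodium/proton exchanger SLC9A3 takes sodium back up. In airway epithelium, IL-4 and IL-13 are known to raise pendrin, the product of SLC26A4, together with mucus production.

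ALOX15 itself had 0.136, 0.314 and 0.319 CPM (counts per 1e+06 counts) in ALOX15 siRNA replicates 1, 2 and 3, against 3.91, 3.56 and 3.25 in control siRNA libraries, and all values below run in that replicate order. It stood at 2.59, 2.23 and 1.81 with Compound A, at 6.00, 4.72 and 5.09 with IL4 alone and at 0, 0.11 and 0.299 in untreated cells. Library totals ran from 6407936 to 11031246 estimated counts, with a median of 7442934. IL4 replicate 1 stood apart from the other IL4 libraries, with a chi-square per degree of freedom of 10.2 and 13.7 against them, where the other pairs within a group gave 1.61 to 5.43. Untreated replicate 1 gave 5.43 and 5.4 against the other untreated libraries, which gave 1.61 against each other. Most fitted values of the tested members that involve IL4 replicate 1 are given with and without it below, as are those of most other transport genes named.

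Per length, SLC26A2 was the highest of the 9 genes in every group. It averaged 59.7 CPM per kilobase of exon with ALOX15 siRNA, 37.1 with control siRNA, 47.9 with Compound A, 36.2 with IL4 and 9.82 in untreated cells. The group means of SLC26A11 lay between 3.29 and 4.46 CPM per kilobase and those of SLC26A6 between 1.48 and 3.44. CFTR was near the floor, at 0.0356 to 0.111 CPM per kilobase, and SLC26A4 at 0.0506 to 0.159. The steepest difference along this scale was that of SLC26A4-AS1, at 1.21 CPM per kilobase with IL4 and 0.0099 in untreated cells.

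**Figure D1:**
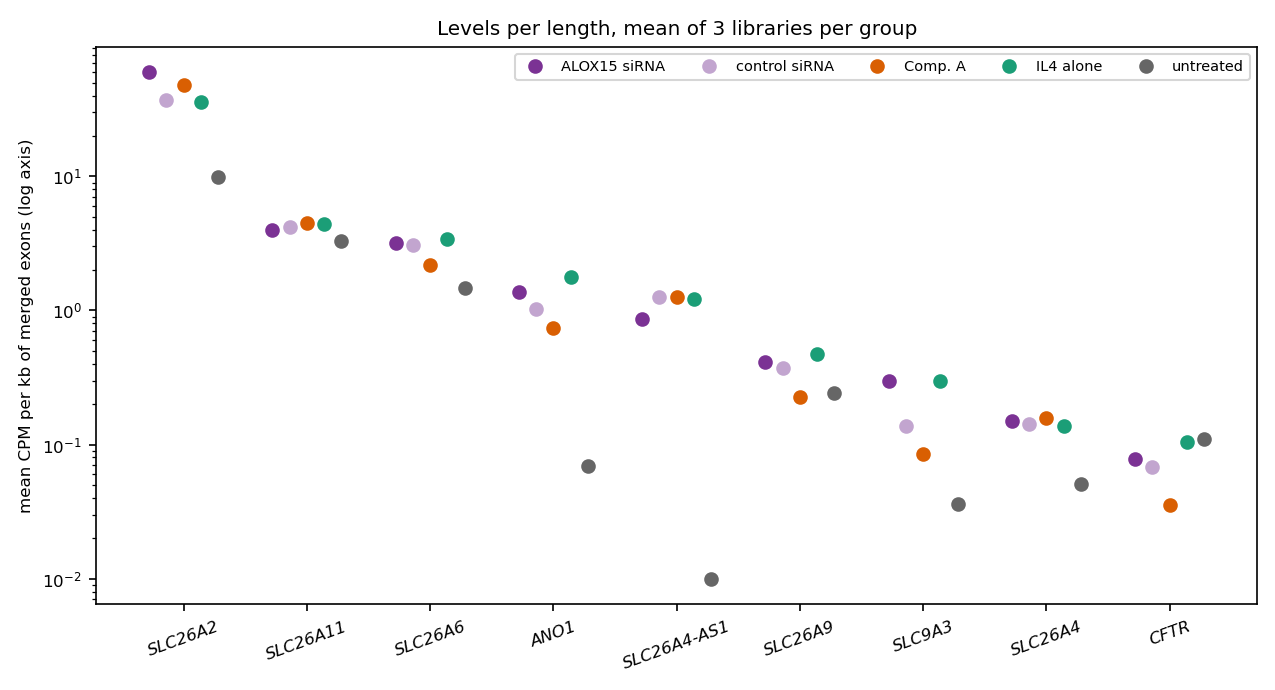
Mean CPM per kilobase of merged exons (log axis, n = 3 libraries a group) for each gene, in the order of their level with IL4, coloured by group. SLC26A2 lies above the rest in all 5 groups, and the untreated means of ANO1 (0.0696) and SLC26A4-AS1 (0.0099) lie far below those of the 4 groups that received IL4.

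Of the 7 tested genes, only SLC26A2 passed with ALOX15 siRNA, that is, had an adjusted p under 0.05. It encodes the sulfate transporter that supplies sulfate for proteoglycans and other sulfated molecules. The gene lies at chr5:149960737-149993455 on the plus strand (GRCh38). It had 499, 523 and 520.4 CPM in ALOX15 siRNA libraries, against 312, 304 and 344 CPM in control siRNA libraries. No library of either group reached the range of the other, and 9.47% of all genes tested had non-overlapping higher libraries in this comparison. The means were 514 ± 13.4 and 319.6 ± 21.0 CPM (SD, n = 3 each). SLC26A2 thus rose 1.61-fold (log2 change 0.69, SE 0.10, adjusted p = 0.0015 by edgeR's quasi-likelihood test, Benjamini-Hochberg over all genes). Of all genes tested, 0.313% rose in this comparison. Leaving out each of the 6 libraries in turn gave 0.65 to 0.74.

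With IL4 alone SLC26A2 had 241, 342 and 351 CPM, against 84.5, 87.9 and 81.0 CPM in untreated cells. Every IL4 library was above every untreated one, as for 15.5% of all genes tested, by a log2 change of 1.88 (SE 0.10, 3.68-fold). The comparison of control siRNA with untreated cells, which shares the untreated libraries, used IL4-treated cells that the choice of genes did not. There SLC26A2 rose by 1.92 (SE 0.10, adjusted p = 1.8e-10, edgeR), without overlap, as for 17.2% of all genes tested, and the control siRNA libraries did not differ from the IL4 libraries past the threshold (log2 change 0.04, SE 0.10, 95% interval -0.17 to 0.24, adjusted p = 0.97).

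Compound A libraries had 407, 415 and 414 CPM of SLC26A2, all above the IL4 values just given, as for 16.1% of all genes tested. The log2 change from IL4 was 0.40 (SE 0.10, 1.32-fold), and 0.25 without IL4 replicate 1, the lowest IL4 library for this gene. Against control siRNA, a comparison that shares the Compound A libraries, the log2 change was 0.37 (SE 0.10, adjusted p = 0.033, edgeR). That call was lost without any of Compound A replicates 1, 2 and 3 or control siRNA replicates 1 and 2 (adjusted p 0.064 to 0.14). In order of mean, SLC26A2 was highest with ALOX15 siRNA, then Compound A, then control siRNA, IL4 and untreated, and only the control siRNA and IL4 libraries overlapped among these neighbours.

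The 250 bases before the RefSeq start of SLC26A2 (GRCh38.p14, chr5:149960508-149960757, plus strand) are shown because this gene changed in most comparisons, beside those of SLC9A3 (chr5:524450-524699, minus strand), the gene whose responses to Compound A and to ALOX15 siRNA lay furthest apart. Capitals mark CCAAT or its reverse complement ATTGG.
SLC26A2: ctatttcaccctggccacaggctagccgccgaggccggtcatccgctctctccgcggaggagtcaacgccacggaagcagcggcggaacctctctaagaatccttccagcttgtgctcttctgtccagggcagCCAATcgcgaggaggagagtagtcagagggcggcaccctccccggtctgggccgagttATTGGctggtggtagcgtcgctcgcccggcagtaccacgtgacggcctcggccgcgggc
SLC9A3: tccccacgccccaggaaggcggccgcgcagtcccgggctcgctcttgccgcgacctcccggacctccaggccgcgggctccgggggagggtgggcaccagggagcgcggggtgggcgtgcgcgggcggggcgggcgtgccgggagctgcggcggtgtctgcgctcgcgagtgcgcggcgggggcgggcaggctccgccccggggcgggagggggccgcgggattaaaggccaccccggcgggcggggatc
The SLC26A2 window held CCAAT on both strands, beginning 117 and 59 bases before the start, and the SLC9A3 window held none. The motif was also in windows of SLC26A6, SLC26A9 and CFTR, beginning 77, 75 and 61 bases before the start. CCAAT in either orientation was present in 32% of 35116 RefSeq windows of this length. RefSeq windows were matched for 8 of the 9 genes, with 2 for SLC26A6. The palindromic forms TTCNNNGAA and TTCNNNNGAA, which STAT proteins including STAT6 are known to bind, were in 6.57% and 5.38% of all windows, and neither form was present in any window of these 8 genes. Of the SLC26A2 window, 21 bases lie in exons of the GENCODE model. That number was 193 for SLC26A4, 62 for CFTR, 49 for SLC26A4-AS1, 32 and 250 for the 2 SLC26A6 windows and 4 for SLC26A9. One SLC26A6 window thus lies wholly in exons. The ANO1 window (chr11:69985657-69985906) lies well before the GENCODE start of that gene (70078302). The windows are therefore not all next to the gene models used here.

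**Figure D2:**
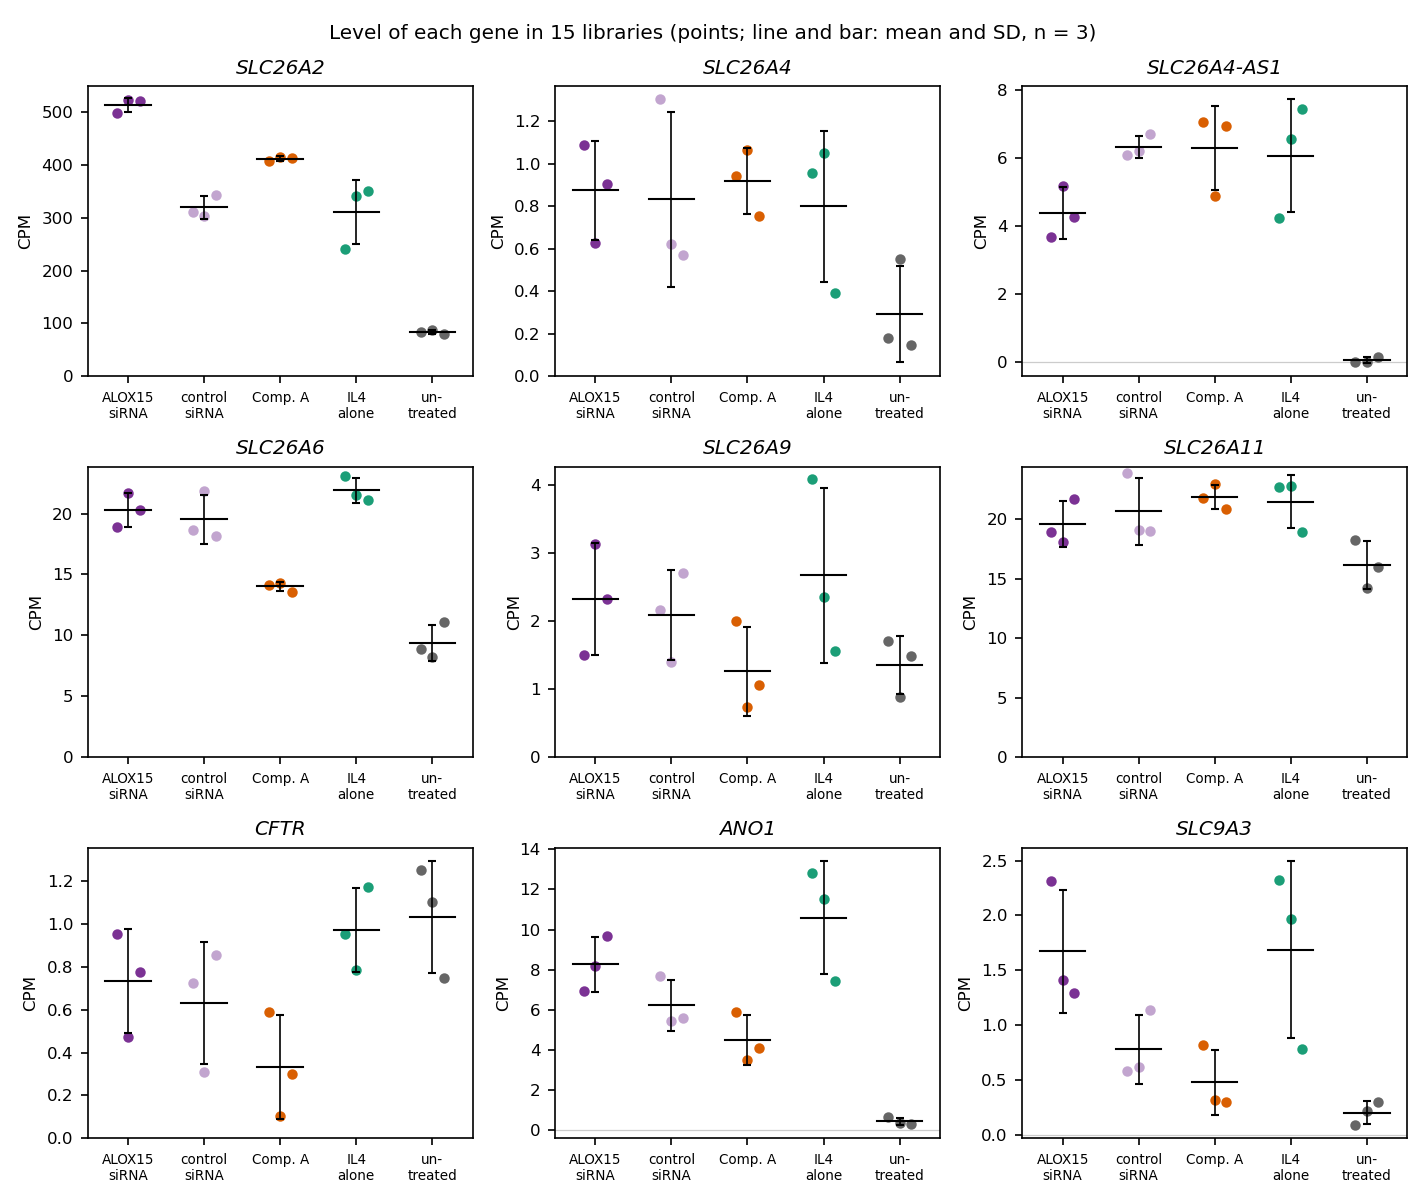
CPM of each of the 9 genes in 15 libraries, by group (points are libraries; the line and bar are mean and SD, n = 3; each panel has its own axis, which includes 0). SLC26A2 is highest with ALOX15 siRNA, SLC26A6 with Compound A averages 14 CPM between the IL4 and untreated libraries, and SLC26A4-AS1 and ANO1 are near 0 in untreated cells.

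SLC26A4-AS1, an antisense long non-coding gene at chr7:107653968-107662151 on the minus strand, had 27 counts or more in each of the 12 libraries that received IL4. It had 31, 50 and 57 counts in IL4 libraries, or 4.23, 6.55 and 7.44 CPM, against 0, 0 and 1 count in untreated libraries. The ratio of summed counts, scaled by library size, was 164 for IL4 over untreated, with an exact 95% interval of 29 to 6535 that covers counting error only. Control siRNA libraries, with 6.08, 6.20 and 6.71 CPM, gave a ratio of 170.5 over the same untreated libraries (30.1 to 6786). A fitted fold change of a gene with 1 count in 3 libraries depends on the prior count and is not given.

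Compound A libraries had 7.06, 4.88 and 6.95 CPM of SLC26A4-AS1, which overlapped the IL4 range, and the log2 change was 0.04 (SE 0.22, 95% interval -0.43 to 0.50). In ALOX15 siRNA libraries it had 3.68, 5.18 and 4.27 CPM, all below the control siRNA values. That difference, a log2 change of -0.54 (SE 0.24), did not pass the threshold over all genes (adjusted p = 0.51, edgeR), and 9.18% of all genes tested had non-overlapping lower libraries in this comparison.

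SLC26A4 encodes pendrin, which exchanges chloride for bicarbonate, iodide or thiocyanate, and lies on the opposite strand at chr7:107660635-107717809. It had 8, 4 and 7 counts with ALOX15 siRNA, 9, 4 and 4 with control siRNA, 8, 10 and 5 with Compound A, 7, 8 and 3 with IL4 and 2, 5 and 1 in untreated libraries. The ratio of scaled counts was 2.68 for IL4 over untreated (exact 95% interval 1.11 to 7.12) and 2.81 for control siRNA over untreated (1.15 to 7.52), with counting error only. IL4 and untreated libraries overlapped (0.392 to 1.05 CPM against 0.149 to 0.551 CPM). Control siRNA libraries, at 0.571 to 1.30 CPM, lay just above the untreated ones, as for 17.2% of all genes tested. The lowest of them held 4 counts, against 5 in untreated replicate 2, so they separated only after scaling by library size. Without a filter on low counts, the log2 change over untreated was 1.38 (SE 0.62) for IL4 and 1.44 (SE 0.62) for control siRNA. Among the IL4-treated groups the mean of SLC26A4 ran only from 0.799 to 0.919 CPM, and all of them overlapped.

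The start of SLC26A4-AS1 lies 1516 bases inside SLC26A4, and their exons share 167 bases, which is 3.32% of the antisense exons and 2.88% of the SLC26A4 exons. The sources used here do not state that counting used strand, so reads in the shared bases cannot be assigned to a strand. All counts of both genes were whole numbers. IL4 libraries held 138 counts of the antisense gene and 18 of SLC26A4, while untreated libraries held 1 and 8.

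SLC26A6, an exchanger of chloride for bicarbonate and oxalate at chr3:48625723-48635493 on the minus strand, was higher with IL4, and lower with Compound A than with IL4. It had 23.1, 21.5 and 21.2 CPM with IL4, against 8.87, 8.27 and 11.1 CPM in untreated cells. These libraries did not overlap, as for 15.5% of all genes tested, and the log2 change was 1.24 (SE 0.12, 2.36-fold). Against the same untreated libraries SLC26A6 rose by 1.07 with control siRNA (SE 0.12, adjusted p = 1.5e-06, edgeR).

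Compound A libraries were tight, at 14.1, 14.3 and 13.6 CPM of SLC26A6, below every IL4 library, as for 15.7% of all genes tested, and above every untreated one. The log2 change from IL4 was -0.64 (SE 0.11). Against control siRNA, with 18.7, 21.9 and 18.1 CPM, it was -0.47 (SE 0.12, adjusted p = 0.021, edgeR), a call lost without any of Compound A replicates 1, 2 and 3 or control siRNA replicates 1 and 2 (adjusted p 0.054 to 0.13). ALOX15 siRNA libraries had 18.9, 21.7 and 20.3 CPM, which overlapped the control siRNA range (log2 change 0.05, SE 0.11, 95% interval -0.18 to 0.29, adjusted p = 0.95).

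SLC26A9, a chloride channel and transporter of airway and stomach epithelium, differed little beside its spread. It had 1.498, 3.14 and 2.33 CPM with ALOX15 siRNA, 2.17, 1.40 and 2.71 with control siRNA, 2.00, 0.743 and 1.06 with Compound A, 4.09, 2.36 and 1.57 with IL4 and 1.70, 0.882 and 1.49 in untreated cells. Every pair of neighbouring groups overlapped. The log2 change was 0.95 (SE 0.40) for IL4 over untreated and -1.06 (SE 0.42) for Compound A over IL4. Leaving out each library in turn gave 0.51 to 1.22 for the first of these and -1.59 to -0.63 for the second.

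SLC26A11, an anion transporter known to carry sulfate and chloride, varied least among the tested genes. Its libraries ran from 18.1 to 21.7 CPM with ALOX15 siRNA, 19.0 to 23.9 with control siRNA, 20.9 to 22.9 with Compound A, 18.9 to 22.8 with IL4 and 14.2 to 18.2 in untreated cells. IL4 and untreated libraries did not overlap, as for 15.5% of all genes tested, and the log2 change was 0.40 (SE 0.12, 1.32-fold). Compound A gave 0.03 over IL4 (SE 0.12). With control siRNA over untreated the log2 change was 0.35 (SE 0.13, adjusted p = 0.056, edgeR). It passed with RLE scaling (adjusted p = 0.049), in a fit of the compared groups alone (0.046), and without untreated replicate 1 (0.024) or control siRNA replicate 3 (0.045). ALOX15 siRNA gave -0.07 against control siRNA (SE 0.13, 95% interval -0.34 to 0.19, adjusted p = 0.93).

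ANO1, also named TMEM16A, at chr11:70078302-70189528 on the plus strand, had the largest fitted difference with IL4 among the members other than SLC26A4-AS1. It had 12.8, 11.5 and 7.44 CPM with IL4, against 0.627, 0.331 and 0.299 CPM in untreated cells. No libraries overlapped, as for 15.5% of all genes tested, and the log2 change was 4.53 (SE 0.34, 23.0-fold). The untreated libraries held 12 counts in all, so the scaled ratio of 23.7 has an exact 95% interval of 13.3 to 46.5. Control siRNA libraries gave a log2 change of 3.76 over the same untreated libraries (SE 0.38), given without a test because ANO1 entered the fit only through the groups that received IL4.

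Compound A libraries had 5.88, 3.50 and 4.08 CPM of ANO1. All were below every IL4 library, as for 15.7% of all genes tested, and above every untreated one. The log2 change from IL4 was -1.24 (SE 0.23, 0.425-fold). Against control siRNA, with 7.67, 5.42 and 5.57 CPM, it was -0.47 (SE 0.25, adjusted p = 0.30, edgeR), with overlapping libraries. Control siRNA was itself below IL4 by a log2 change of -0.76 (SE 0.22), which did not pass the threshold (adjusted p = 0.90, unadjusted p = 0.0027, edgeR). ALOX15 siRNA libraries had 6.94, 8.17 and 9.69 CPM, which overlapped control siRNA (log2 change 0.41, SE 0.23, adjusted p = 0.66). Of the ANO1 exon bases, 10.7% also belong to ANO1-AS1 on the other strand.

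CFTR, at chr7:117465784-117715971 on the plus strand, was not higher with IL4. It had 7, 3 and 6 counts with ALOX15 siRNA, 5, 2 and 6 with control siRNA, 5, 1 and 2 with Compound A, 7, 6 and 9 with IL4 and 14, 10 and 5 in untreated libraries. The scaled ratio of IL4 over untreated was 0.903 (exact 95% interval 0.494 to 1.63). Compound A libraries, at 0.588, 0.106 and 0.302 CPM, lay below all IL4 libraries, at 0.955, 0.787 and 1.18 CPM. Of all genes tested, 15.7% did so in this comparison. The ratio was 0.335 (0.129 to 0.782), from 8 counts against 22. Compound A and control siRNA libraries overlapped, with a ratio of 0.511 (0.184 to 1.33). Without a filter on low counts, the log2 change of Compound A over IL4 was -1.53 (SE 0.59). These intervals cover counting error only.

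SLC9A3 encodes NHE3, the sodium/proton exchanger of intestine and kidney, and lies at chr5:470458-524332 on the minus strand. It had 2.32, 1.97 and 0.784 CPM with IL4, against 0.0896, 0.22 and 0.299 CPM in untreated cells, which hold 5 counts in all. The libraries did not overlap, as for 15.5% of all genes tested, and the log2 change was 3.07 (SE 0.59). Against the same untreated libraries, control siRNA gave 1.98 (SE 0.70), which is not tested for the same reason as for ANO1.

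Compound A libraries had 0.824, 0.319 and 0.302 CPM of SLC9A3, which overlapped the lowest IL4 library. The log2 change was -1.75 (SE 0.50), and -2.38 to -1.46 when each library was left out in turn. ALOX15 siRNA libraries had 2.32, 1.41 and 1.29 CPM, all above the 0.579, 0.62 and 1.14 CPM of control siRNA libraries. The log2 change was 1.08 (SE 0.48), and 9.47% of all genes tested had non-overlapping higher libraries in this comparison. SLC9A3 had 10 counts or more in 4 libraries, all with IL4 alone or ALOX15 siRNA. It thus entered the fit through the groups where it was high, and no test of it is given.

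SLC9A3 shares 41.9% of its exon bases with PP7080, 14.9% with EXOC3 and 14.7% with SLC9A3-AS1, so its level is uncertain where reads could belong to either gene. PP7080 ran from 6.22 to 6.85 CPM with control siRNA, 5.89 to 6.58 with Compound A, 7.05 to 8.78 with IL4 and 6.58 to 7.44 in untreated cells. Its log2 change was 0.16 for IL4 over untreated and -0.32 for Compound A over IL4 (adjusted p = 0.50 and 0.15, edgeR). EXOC3 changed by 0.11 and -0.08 on the log2 scale in the same comparisons (adjusted p = 0.37 and 0.53).

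**Figure D3:**
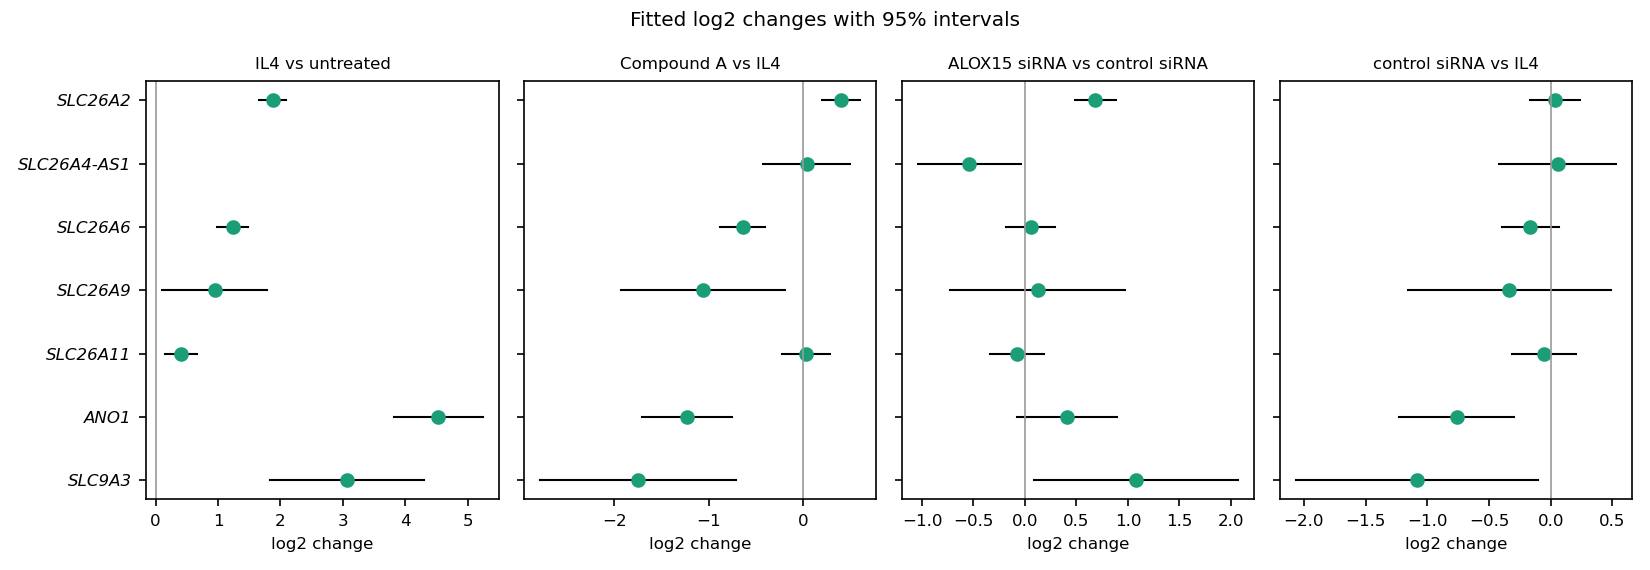
Fitted log2 change (x axis, a scale of its own per panel) with its 95% interval for the 7 tested genes in 4 comparisons, positive where the first-named group is higher; SLC26A4-AS1 is left out of the first panel because untreated libraries held 1 count. With ALOX15 siRNA, SLC26A2 is at 0.69, and SLC26A6 and SLC26A11 are close to 0.

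Counted over the members, 6 of the 7 tested passed upward for IL4 over untreated, where 11.2% of all genes tested did, and none passed downward, where 11.6% did. For Compound A over IL4, 1 passed upward and 3 downward, where 6.35% and 8.07% of all genes did. These counts belong to the comparisons behind the choice of genes and are given as description. The first was 5 to 7 with each library left out in turn and 4 in a fit of the compared groups alone, and SLC26A11 was not in it without untreated replicate 2, without IL4 replicate 2 or in that fit. The 4 genes counted for Compound A over IL4 were 3 to 5 with each library left out and 2 in a fit of the compared groups alone. SLC26A2 was not among those 2. SLC9A3, with 10 counts or more only in IL4 alone and ALOX15 siRNA libraries, is 1 of the 3 counted downward for Compound A. SLC26A4-AS1, ANO1 and SLC9A3 had under 10 counts in every untreated library, so they entered the fit only through the groups that received IL4. Of the other 4 genes, SLC26A2 and SLC26A6 passed upward for control siRNA over untreated, which shares the untreated libraries, where 9.93% of all genes did, and none passed downward, where 9.36% did. For Compound A over control siRNA, SLC26A2 passed upward and SLC26A6 downward, where 1.86% and 3.42% of all genes did. For control siRNA over IL4, none passed, and none of the 12795 genes did by edgeR, with 628 at an unadjusted p under 0.05 and 2 called by DESeq2.

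Without IL4 replicate 1, the log2 change of IL4 over untreated was 2.03 for SLC26A2, 1.202 for SLC26A6, 0.51 for SLC26A9, 0.36 for SLC26A11, 4.37 for ANO1 and 2.78 for SLC9A3. For Compound A over IL4 it was 0.25 for SLC26A2, -0.60 for SLC26A6, -0.63 for SLC26A9, -1.08 for ANO1 and -1.46 for SLC9A3, while SLC26A4-AS1 gave -0.17 and SLC26A11 0.07. For control siRNA over IL4 it was -0.12 for SLC26A2 and -0.61 for ANO1, neither of which passed (adjusted p = 0.97 for both, edgeR). SLC9A3 gave -0.80 there, without a test.

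The effects of Compound A (over IL4) and of ALOX15 siRNA (over control siRNA) rest on separate libraries and were compared in the same fit. Their difference, Compound A minus ALOX15 siRNA, contains the comparison of Compound A with IL4 behind the choice of genes, so no test of it is given for the members. It was -0.69 for SLC26A6 (SE 0.16), -1.65 for ANO1 (SE 0.33) and -2.83 for SLC9A3 (SE 0.69). Without IL4 replicate 1 these were -0.66, -1.49 and -2.54. These 3 genes were lower with Compound A than with IL4, a pattern already in the comparison used for the choice. With ALOX15 siRNA, SLC26A6 and ANO1 did not pass, and SLC9A3 is given without a test. The baselines of these effects, control siRNA and IL4, also differed for ANO1 and SLC9A3. Control siRNA over IL4 gave -0.76 for ANO1, which did not pass, and -1.08 (SE 0.47) for SLC9A3, without a test.

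For SLC26A2, higher with both, the difference was -0.28 (SE 0.14) and was -0.43 without IL4 replicate 1. SLC26A4-AS1 gave 0.58 (SE 0.33), and 0.375 without that library.

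Other genes of epithelial ion transport were counted over 124 genes in 8 lists, of which 74 were tested. These lists, like the members, were chosen with earlier results of these data known. Calls and adjusted p for IL4 over untreated, for Compound A over IL4 and for the difference are therefore a description. None of 6 further SLC26 genes had enough counts. For IL4 over untreated, 20 of the 74 rose and 8 fell, where 11.2% and 11.6% of all genes did. Their median log2 change was 0.13, against -0.02 over all genes tested. Scaffolds and kinases of apical transporters held 8 that rose among 18 tested, and chloride channels and their modifiers 6 among 15, with none that fell in either list. Without IL4 replicate 1, the total was 21 and 10.

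Among these, PDZK1IP1, a membrane protein that binds the scaffold PDZK1, had 2.61 ± 0.27 CPM with IL4 and 0.749 ± 0.28 in untreated cells (SD, n = 3 each). Its log2 change was 1.73 (SE 0.43). It had 9, 9 and 3 counts in untreated libraries and entered the fit only through groups that received IL4. It is counted among the 8 scaffold and kinase genes that rose, but no test of it is given. TTYH2, of a family of chloride channels, had a log2 change of 1.54. With 23, 12 and 7 counts in untreated libraries, it too was kept by the filter through groups that received IL4. It is counted among the 6 chloride channel genes that rose, but no test of it is given. KCNJ16, an inward rectifier potassium channel, rose by 1.29, and P2RY2, the receptor for extracellular ATP and UTP that raises calcium, by 0.93. CA9, a carbonic anhydrase on the cell surface, fell to 1.11 ± 0.43 CPM with IL4, against 4.35 ± 1.14 in untreated cells (log2 change -1.98, adjusted p = 0.0001, edgeR). AQP3, a water and glycerol channel, changed by -0.83, SGK1, a kinase that raises sodium channel activity, by -0.76, and SLC12A2, the basolateral cotransporter that loads cells with chloride, by -0.62. Of these genes other than PDZK1IP1 and TTYH2, P2RY2 had the highest adjusted p (0.001, edgeR), given as description.

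For Compound A over IL4, 4 of the 74 rose and 14 fell, where 6.35% and 8.07% of all genes did, with a median of -0.10 against 0.00 over all genes tested (0.0019). This comparison shares the IL4 libraries with the one just described. SLC9A3R1, or NHERF1, the scaffold that ties SLC9A3 and CFTR to the apical cytoskeleton, had 64.8, 63.3 and 62.9 CPM with Compound A, against 148.5, 115 and 104.5 CPM with IL4. Its log2 change was -0.95 (SE 0.10, adjusted p = 9.1e-06, edgeR), and IL4 and untreated libraries (112 to 134 CPM) overlapped. PDZK1, another scaffold of this kind, had 4.47, 3.29 and 4.38 CPM with Compound A, against 8.05, 9.44 and 5.09 CPM with IL4 (log2 change -0.90, adjusted p = 0.0081). TTYH3 changed by -0.81 and KCNJ16 by -0.73. Without IL4 replicate 1, 3 rose and 13 fell, and the log2 change was -0.79 for SLC9A3R1, -0.85 for PDZK1, -0.56 for TTYH3 and -0.78 for KCNJ16. The chloride/proton exchangers CLCN5 and CLCN4 rose by 0.41 and 0.37, and WNK1, a kinase of cation chloride cotransporters, by 0.25. CLCN5 did not pass without IL4 replicate 1 or Compound A replicate 2 (adjusted p = 0.058 and 0.086), nor PDZK1 without Compound A replicate 2 (0.064). CLCN4 did not pass without IL4 replicate 1 or 3 or Compound A replicate 2 or 3 (0.051 to 0.12), nor by DESeq2 (0.053). In a fit of the compared groups alone, none of CLCN5, CLCN4, WNK1 and PDZK1 passed (0.058 to 0.11).

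For ALOX15 siRNA over control siRNA, none of the 74 rose and 2 fell, where 0.313% and 0.383% of all genes did. SULT2B1, a sulfotransferase of cholesterol and other sterols, had 6.94, 6.28 and 4.78 CPM with ALOX15 siRNA, against 13.3, 10.2 and 12.6 CPM with control siRNA. Its log2 change was -1.01 (SE 0.20, adjusted p = 0.016, edgeR), and SLC12A2 changed by -0.35 (SE 0.08, adjusted p = 0.034). The SULT2B1 call was lost without control siRNA replicate 1 or 3 or ALOX15 siRNA replicate 2 or 3 (adjusted p 0.066 to 0.15), and that of SLC12A2 without any of the 6 libraries but control siRNA replicate 2. The difference of Compound A minus ALOX15 siRNA passed for 11 of the 74 genes, 3 positive and 8 negative, where 1.94% and 3.2% of all genes did. Among them were SLC9A3R1 at -0.96 (SE 0.14, adjusted p = 0.00033, edgeR), KCNJ16 at -0.99 (SE 0.18, adjusted p = 0.0022) and PDZK1 at -1.35 (SE 0.29, adjusted p = 0.0089). Without IL4 replicate 1 these were -0.80, -1.04 and -1.30, and each passed. For control siRNA over untreated, 20 of the 74 rose and 7 fell, where 9.93% and 9.36% of all genes did. For Compound A over control siRNA, 4 rose and 9 fell, where 1.86% and 3.42% of all genes did.

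**Figure D4:**
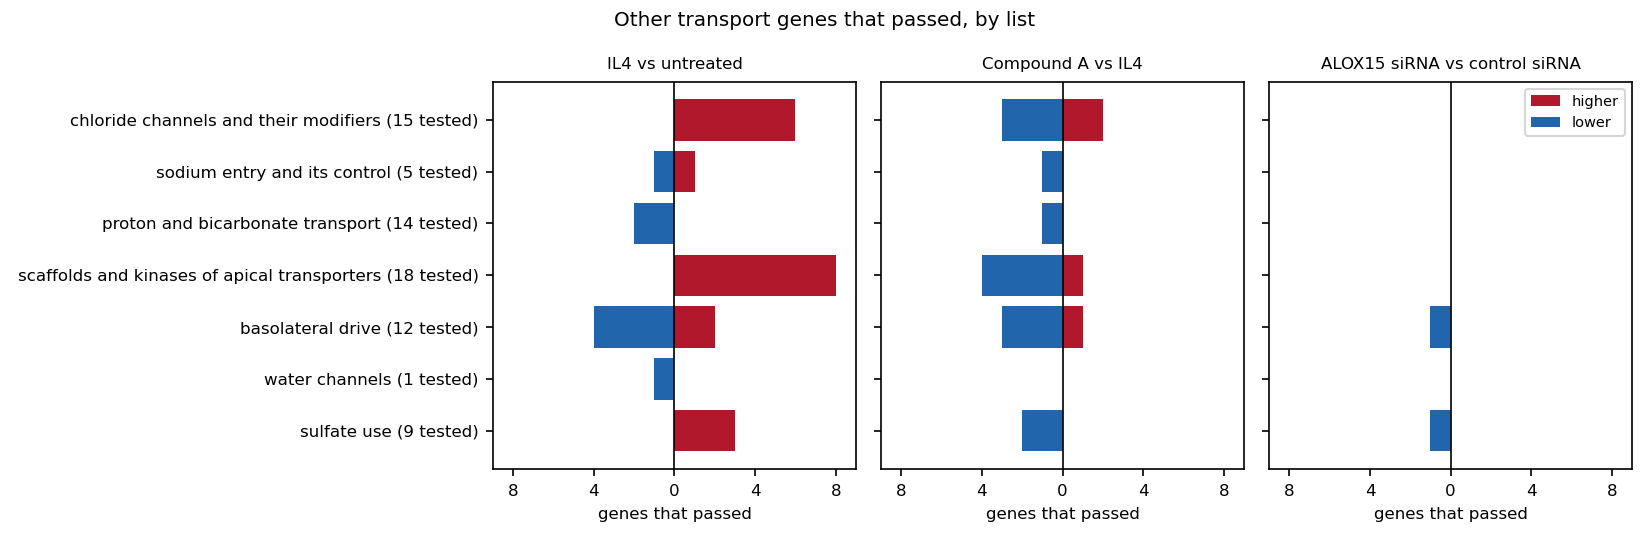
Number of other transport genes that passed in each list (bars right of 0 for higher, left of 0 for lower in the first-named group) in 3 comparisons. IL4 over untreated gives 8 higher scaffold and kinase genes and 6 higher chloride channel genes, and ALOX15 siRNA over control siRNA gives 2 lower genes in all.

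The genes whose log2 CPM followed a member most closely over the 15 libraries were found by Pearson's r, as a description over libraries that share groups. SLC26A2 was followed by CAPN2 (r = 0.986) and ANTXR1 (0.982), and SLC26A4-AS1 by PLAU (0.982), HBEGF (0.981) and CCL26 (0.979). CCL26, or eotaxin-3, averaged 107 CPM with ALOX15 siRNA, 89.5 with control siRNA, 100 with Compound A, 98.3 with IL4 and 0.841 in untreated cells. ANO1 was followed by HK1 (0.992), PCSK6 (0.989) and GSN (0.988), and SLC26A6 by COL6A1 (0.972), C4BPA (0.966) and BMP1 (0.965). The closest genes were less alike for SLC26A9 (MARVELD1, 0.919), SLC26A11 (PLCD1, 0.891) and SLC9A3 (XKR8, 0.915).

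Markers of other lung cell types were measured as 8 lists. These were also chosen with earlier results known, so calls for IL4 over untreated and for Compound A over IL4 are a description. Of 6 markers of ionocytes, the airway cells rich in CFTR, 5 were at 0 in all 15 libraries (FOXI1, ASCL3, BSND, ATP6V1G3 and STAP1), and their sum was at most 0.272 CPM. That of 4 endothelial markers was at most 0.819 CPM. Secretory and goblet markers, by contrast, were abundant. Their 6 genes summed to 555 to 759 CPM with Compound A, 690 to 1048 with IL4 and 917 to 1028 in untreated cells, nearly all from the mucins MUC5AC and MUC5B, with SCGB1A1 and SCGB3A1 at 0. Of 4 of these genes that were tested, MUC5AC (log2 change -0.63, adjusted p = 0.0228) and SPDEF (-0.78, adjusted p = 0.0193, both edgeR) fell with Compound A over IL4, and SPDEF fell with IL4 over untreated (-0.63, adjusted p = 0.0208).

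The summed level of 8 alveolar type II markers was 53.1 to 62.3 CPM with Compound A, 58.3 to 74.9 with IL4 and 39.15 to 39.8 in untreated cells, mostly ABCA3, with SFTPB and SLC34A2 at 0. Of the 2 tested, 1 rose with IL4 over untreated. For 6 basal markers it was 4.25 to 9.53 CPM with Compound A, 9.79 to 11.01 with IL4 and 14.8 to 16.1 in untreated cells. Most of it was TP63, which fell in both comparisons (adjusted p = 0.0146 for Compound A over IL4 and 0.00858 for IL4 over untreated, edgeR). For 6 ciliated markers it was 3.53 to 4.68 CPM with Compound A, 3.54 to 5.05 with IL4 and 6.502 to 7.80 in untreated cells, with CCDC39 at 0, and TPPP3 fell with IL4 over untreated (adjusted p = 0.0073, edgeR). For 6 fibroblast markers it was 9.56 to 12.7 CPM with Compound A, 19.3 to 27.0 with IL4 and 9.15 to 11.4 in untreated cells, mostly COL1A1, with COL1A2 at 0 throughout. Of the 3 tested, 1 rose with IL4 over untreated and 2 fell with Compound A over IL4. For 6 leukocyte markers it was 7.96 to 12.1 CPM with Compound A, 17.2 to 24.2 with IL4 and 11.2 to 15.1 in untreated cells, mostly CD68, with PTPRC and CD3E at 0. Of the 2 tested, 1 rose with IL4 over untreated and 1 fell with Compound A over IL4. Over all genes tested, 11.2% rose and 11.6% fell with IL4 over untreated, and 8.07% fell with Compound A over IL4.

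The fibroblast and leukocyte sums were higher in every IL4 library than with Compound A or in untreated cells, like SLC26A6 and ANO1. The basal sum was likewise lower with Compound A than with IL4, but highest in untreated cells. In ALOX15 siRNA libraries, where SLC26A2 rose, the alveolar type II sum was 72.4 to 75.2 CPM, against 60.2 to 66.5 CPM in control siRNA libraries, and the secretory and goblet sum 799 to 898 CPM, against 741 to 780 CPM. Neither pair overlapped, though no marker gene passed in that comparison, where 9.47% of all genes tested had non-overlapping higher libraries. The alveolar type II sum was mostly ABCA3 (69.8 to 70.8 CPM against 55.4 to 62.8 CPM). Of the mucins, MUC5AC did not overlap (362 to 414 CPM against 320.5 to 336 CPM). MUC5B did overlap (419 to 464 CPM against 401 to 428 CPM). The sums of the fibroblast (18.2 to 20.9 CPM against 16.5 to 19.4 CPM), leukocyte (16.2 to 17.5 CPM against 14.3 to 18.0 CPM), basal (8.305 to 9.69 CPM against 7.67 to 9.76 CPM) and ciliated markers (3.49 to 5.04 CPM against 2.28 to 4.92 CPM) overlapped. The part of these markers in the results was not tested. In bulk RNA, fewer cells that express a gene and less of its RNA per cell cannot be told apart.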

How the data were processed

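RNA-seq of A549 cells was read from a table of expected counts that the authors deposited, which are per-gene estimates of read number from RSEM, not scaled. Per the submitters' processing notes, Bowtie2 2.1.0 and RSEM 1.2.15 were used with the hg38 genome; the annotation and the use of strand are not given in the sources used here. Counts were rounded, and genes were kept by edgeR's filterByExpr (minimum count 10), which left 12795 of 26475 genes. After TMM scaling, all libraries entered 1 fit, with 1 coefficient per group, by edgeR 4.0.16 (robust quasi-likelihood, R 4.3.3), with Benjamini-Hochberg adjustment over all genes at a threshold of 0.05. CPM are counts per 1e+06 of the TMM-scaled library size, and log2 CPM has a prior count of 2. Genes with few counts are given as ratios of summed counts with exact 95% intervals, which cover counting error only, since reads without molecular identifiers are not independent molecules.

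The members and lists were chosen with earlier results of these data known. All 9 members are named, with up to 4 transport genes per direction in a comparison (passing, at least 1 CPM in a group, largest log2 change) and the 3 genes most correlated with each tested member. The text leaves out some of these for the comparisons with control siRNA and for the difference. A few other genes under the rule are not reported here. Gene positions came from GENCODE 29 and promoter windows from RefSeq. The fit was tested on simulated data. Alternatives were upper-quartile and RLE scaling, a stricter filter (1 CPM in 3 libraries) and none, DESeq2 1.42.0, the compared groups alone, a replicate block, and each library left out; counts over the lists without IL4 replicate 1 were added after the data were seen.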

Additional observations from a re-analysis of the deposited data

Results flagged for a closer look

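Listed here are the members with an adjusted p under 0.05 for the difference between the changes with Compound A and with ALOX15 siRNA. The difference contains the comparison of Compound A with IL4 behind the choice of genes. Being listed, and the values given, are therefore a description and not a test. The difference, Compound A over IL4 minus ALOX15 siRNA over control siRNA, was -0.69 for SLC26A6 on the log2 scale. It was -1.65 for ANO1 and -2.83 for SLC9A3. SLC26A6 changed by -0.64 with Compound A and by 0.05 with ALOX15 siRNA, ANO1 by -1.24 and 0.41, and SLC9A3 by -1.75 and 1.08. With ALOX15 siRNA, SLC26A6 and ANO1 did not pass the threshold. SLC9A3, with 12 to 38 summed counts in each of the groups compared, is given without a test. The baselines also differed, as control siRNA over IL4 gave -0.17 for SLC26A6, -0.76 for ANO1 and -1.08 for SLC9A3. Compound A over control siRNA gave -0.47, -0.47 and -0.67 for these genes. Leaving out each library gave -0.78 to -0.64 for SLC26A6, -1.90 to -1.48 for ANO1 and -3.46 to -2.52 for SLC9A3.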

How the results depend on the processing

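The 7 tested members and the named transport genes gave 1239 log2 changes under other settings, of which 1086 kept their direction and their side of the threshold, 126 lost a call, 10 gained one and 17 changed sign, all of the last in comparisons where the gene had not passed. Upper-quartile scaling turned SLC26A11 to -0.0035 with Compound A over IL4, and each other change of sign came from leaving out a library. Over those fits SLC26A11 ran from -0.052 to 0.071 for Compound A over IL4, from -0.16 to 0.041 for ALOX15 siRNA over control siRNA and from -0.016 to 0.19 for the difference. SLC26A4-AS1 ran from -0.17 to 0.21 for Compound A over IL4, from -0.14 to 0.23 for control siRNA over IL4 and from -0.12 to 0.15 for Compound A over control siRNA. SLC26A9 ran from -0.13 to 0.36 and SLC26A6 from -0.0004 to 0.14 for ALOX15 siRNA, while SLC26A2 ran from -0.12 to 0.13 and SLC26A9 from -0.61 to 0.10 for control siRNA over IL4.

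A fit of the compared groups alone called 1466 genes for IL4 over untreated (2925 with all 15 libraries), 397 for Compound A over IL4 (1846), 325 for ALOX15 siRNA over control siRNA (89) and 1768 for Compound A over control siRNA (675), and 2 members for Compound A over IL4 (4). DESeq2 called 2 genes for control siRNA over IL4 (0 by edgeR), and without a filter 1 member passed for Compound A over control siRNA (2). Leaving out a library gave 769 to 3016 genes for Compound A over IL4, 35 to 52 for ALOX15 siRNA, 220 to 538 genes and 0 to 2 members for Compound A over control siRNA, and 324 to 1153 genes and 2 to 4 members for the difference (3). The cause of these moves was not tested.

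Of 30 pairs of libraries with the same replicate number, 8 correlated above 0.1 (-0.128 to 0.286), and pairs with unlike numbers ran from -0.237 to 0.232. These ranges overlap and do not decide whether the numbers pair the libraries. With the replicate number as a block, SLC26A11 (0.35, adjusted p = 0.043) and SLC9A3 (2.04) passed for control siRNA over untreated (6 members against 4, of which SLC26A4-AS1, ANO1 and SLC9A3 entered the fit only through the groups that received IL4), and no other call on a member changed. Depth limited SLC26A4 and CFTR most. DESeq2 gave no adjusted p to SLC9A3 or SLC26A9 in the comparisons of Compound A and ALOX15 siRNA.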
